A study of Homo sapiens with 8 samples.

Results

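RNF130, NETO2, PLEKHA1, BEX1 and GFRA1 were measured in CCRF-CEM cells, a human line established from T-cell acute lymphoblastic leukaemia (T-ALL), on 8 Affymetrix arrays. They were chosen by their measured levels, which in the pair of cultures numbered 3 stood above those of numbers 1, 2 and 4. Each gene matched 1 probe set, so the members are 5 of 21448 probe sets. The 4 untreated samples were held for 1 h in a bovine type I collagen gel of 1.7 mg/mL. The 4 treated samples were first given 1 µM OICR-9429 for 1 h and then embedded for 1 h in the same way. The compound OICR-9429 occupies the pocket of WDR5 where it contacts MLL-family histone methyltransferases. Each group has samples numbered 1 to 4 labelled as biological replicates of 1 cell line. The labels name no solvent for the untreated cells and give no passage or day for the replicates. Any p-value therefore measures the spread between these samples, which may be technical.

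The 5 proteins have different jobs, and no single pathway holds them. RNF130 is a membrane-spanning RING-type E3 ubiquitin ligase of the goliath family, which tags other membrane proteins for degradation. NETO2 is an auxiliary subunit that tunes kainate-type glutamate receptors in neurons. PLEKHA1, also called TAPP1, carries a PH domain that binds phosphatidylinositol 3,4-bisphosphate, a lipid made in lymphocytes when phosphoinositide 3-kinase is active. BEX1 is a small X-linked adaptor protein best known from brain and neurotrophin signalling. GFRA1 is the lipid-anchored co-receptor that binds GDNF and presents it to the receptor tyrosine kinase RET.

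Array medians lay between 6.38 and 6.46 on the log2 scale, and 0 pairs of arrays held identical values. T-cell identity was checked with 28 listed T-cell and T-ALL markers. All 24 that were measured lay on all 8 arrays above the limit set by silent genes (given with the on-off comparison), CD3E at 11.61 to 11.97 among them. The limit alone does not tell cell types apart: 4 of 8 B-cell, 5 of 12 myeloid, 5 of 8 erythroid and megakaryocyte, 4 of 9 NK and cytotoxic, 5 of 11 fibroblast and epithelial and 7 of 17 neuronal markers also lay above it on all 8. The number 4 pair stood apart most widely, with 578 probe sets higher (2.69%) and 2302 lower (10.7%) than the other 6 arrays by at least 1 on the log2 scale without overlap. In a check for mixed-up samples, reported as a count alone, 2 libraries stood apart from the other 6. That check bears on whether every library holds the labelled line alone, and so on what a difference between culture pairs is. Its part in the results was not tested.

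All 5 genes were highest on both arrays of number 3, and in none of them did those arrays overlap the other 6. The difference between number 3 and the rest is called the step here, the mean of both number 3 arrays minus the mean of the other 6 on the log2 scale. Steps ran from 2.17 in GFRA1 to 3.93 in RNF130. Because the genes were chosen for this difference, it is given as a description, with no test. Doubling of signal is 1 unit on this scale. Near background the array compresses differences, so folds are of signal and steps of different genes need not share 1 scale.

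RNF130 had the largest step of the 5 genes and of all 21448 probe sets. It measured 5.35, 5.41, 8.74 and 3.62 in untreated samples 1 to 4 and 5.53, 5.55, 8.75 and 3.45 in treated samples 1 to 4. The 2 arrays of number 3 were within 0.01 of each other, and the nearest other array lay 3.19 below them. The step was 3.93, a 15.2-fold difference in signal, against an SD of 0.998 over the other 6 arrays. Much of that SD came from number 4, where RNF130 was lower than in numbers 1 and 2 by 1.93. Without number 4 the step was 3.29.

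NETO2 followed the same order. It measured 5.67, 5.10, 7.73 and 3.76 in untreated samples 1 to 4 and 5.52, 5.25, 8.07 and 3.82 in the treated ones. The arrays fell on 3 tiers, with number 4 at the bottom, numbers 1 and 2 in the middle and number 3 at the top. The step was 3.05 (8.26-fold), the gap to the nearest array 2.06, and the SD of the others 0.848. Number 4 lay 1.60 below the mean of numbers 1 and 2, and the step without it was 2.52.

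PLEKHA1 was dim on 6 arrays and not on the 2 of number 3. It measured 3.74, 3.93, 6.52 and 3.19 in untreated samples 1 to 4 and 3.84, 3.52, 6.65 and 3.37 in the treated ones. Number 4 was again the lowest, but only 0.48 under the mean of numbers 1 and 2. The step was 2.99 (7.93-fold) with a gap of 2.59 and an SD of the others of 0.288.

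BEX1 was flat outside number 3. It measured 4.56, 4.35, 6.62 and 4.46 in untreated samples 1 to 4 and 4.64, 4.72, 7.04 and 4.62 in the treated ones. The other 6 arrays had an SD of 0.134, the smallest of the 5 genes, and the mean of number 4 lay within 0.03 of the mean of numbers 1 and 2 together. The step was 2.27 (4.83-fold), with a gap of 1.90.

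GFRA1 was also flat over numbers 1 and 2, and number 4 did not lie below them. It measured 5.43, 5.52, 7.48 and 5.47 in untreated samples 1 to 4 and 5.29, 5.33, 7.86 and 5.96 in the treated ones. The 5.96 of treated sample 4 was the highest value outside number 3, while untreated sample 4 lay within the range of numbers 1 and 2. The step was 2.17 (4.50-fold), the smallest of the 5, with a gap of 1.52 and an SD of the others of 0.241.

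**Figure D1:**
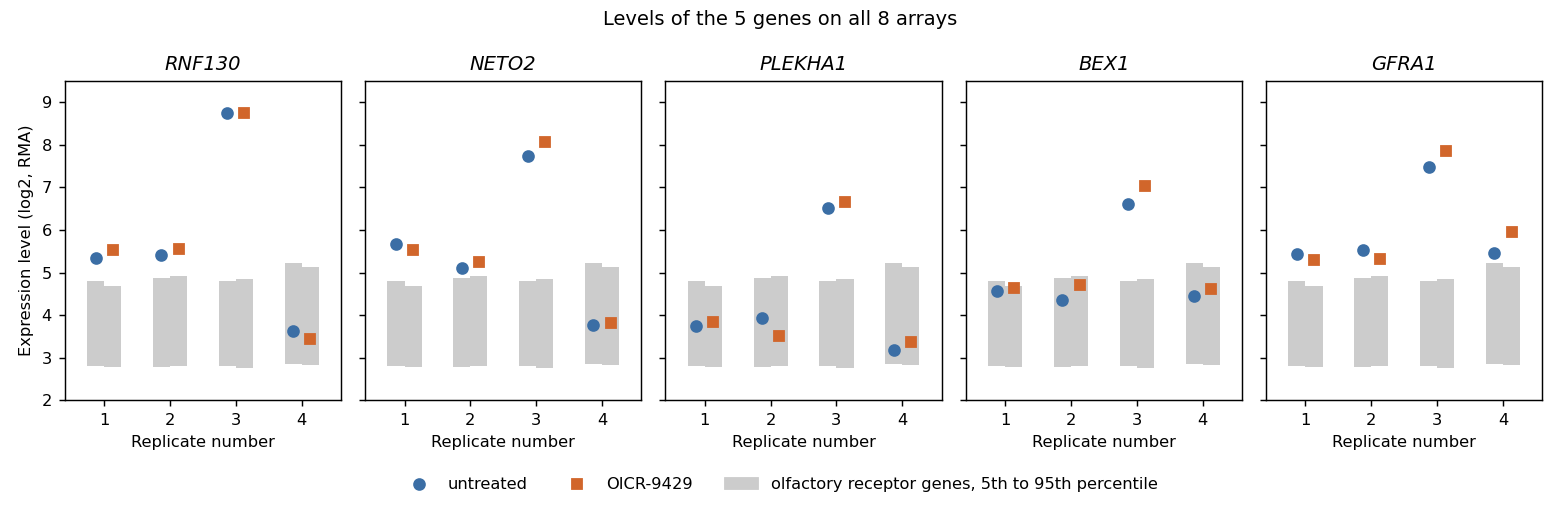
Expression level (log2, vertical axis) of each gene against replicate number (horizontal axis), with circles for untreated and squares for OICR-9429 samples; grey boxes span the 5th to the 95th percentile of 348 olfactory receptor genes on the same array. Both arrays of number 3 are the highest in every panel, from 6.52 for PLEKHA1 to 8.75 for RNF130, and RNF130 and NETO2 drop into the grey range at number 4.

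Promoter sequences of the genes are shown for the largest step (RNF130), for both genes that were silent by the limit below on all 6 other arrays (PLEKHA1 and BEX1), and for GFRA1, whose pattern outside number 3 differed. Each is the 250 bases before the gene's first start in RefSeq (build GRCh38.p14), read 5′ to 3′ on the gene's strand, with CpG dinucleotides in capitals. All 5 genes matched the promoter table. The windows lie at chr5:180071760-180072009 (minus strand) for RNF130, chr10:122374458-122374707 (plus strand) for PLEKHA1, chrX:103064172-103064421 (minus strand) for BEX1 and chr10:116274706-116274955 (minus strand) for GFRA1.
RNF130: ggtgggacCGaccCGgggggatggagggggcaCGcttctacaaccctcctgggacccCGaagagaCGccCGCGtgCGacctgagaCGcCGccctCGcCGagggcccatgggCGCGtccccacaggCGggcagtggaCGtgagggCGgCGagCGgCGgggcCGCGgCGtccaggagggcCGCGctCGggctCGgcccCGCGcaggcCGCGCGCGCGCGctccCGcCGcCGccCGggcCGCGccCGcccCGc
PLEKHA1: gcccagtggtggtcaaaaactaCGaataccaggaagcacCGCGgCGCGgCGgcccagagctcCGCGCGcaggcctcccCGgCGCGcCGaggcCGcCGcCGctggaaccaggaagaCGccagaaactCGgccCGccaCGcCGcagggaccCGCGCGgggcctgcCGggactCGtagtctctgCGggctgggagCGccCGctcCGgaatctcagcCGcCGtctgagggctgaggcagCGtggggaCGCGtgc
BEX1: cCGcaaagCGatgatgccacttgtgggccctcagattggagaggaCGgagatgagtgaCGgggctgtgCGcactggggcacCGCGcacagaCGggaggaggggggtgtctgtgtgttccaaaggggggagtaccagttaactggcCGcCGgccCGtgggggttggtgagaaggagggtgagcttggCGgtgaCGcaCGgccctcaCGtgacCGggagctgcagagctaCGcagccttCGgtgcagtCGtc
GFRA1: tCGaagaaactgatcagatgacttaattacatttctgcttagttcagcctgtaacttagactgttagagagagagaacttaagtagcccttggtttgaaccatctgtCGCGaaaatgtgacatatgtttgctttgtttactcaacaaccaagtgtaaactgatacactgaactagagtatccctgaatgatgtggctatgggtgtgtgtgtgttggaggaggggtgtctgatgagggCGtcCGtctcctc

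The windows differed in CpG content. RNF130 held 43 CpG dinucleotides and PLEKHA1 35, where the median of 35116 RefSeq promoter windows of 250 bases was 11. NETO2, whose window lies at chr16:47143946-47144195 (minus strand), held 47, at percentile 99.7 of all windows. BEX1 held 19. GFRA1 held 5 at its outermost start and 4 to 23 over its 4 listed starts, and which start these cells use is not known here. Clusters of CpG mark promoters that can be silenced by DNA methylation, which was not measured here.

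Response motifs were searched on both strands of the same 5 windows, counting overlaps. The EGR motif GCGTGGGCG, the AP-1 motif TGANTCA, the cyclic AMP element TGACGTCA and the NR4A motif AAAGGTCA each occurred in 0 of the 5. They occurred in 0.720%, 6.57%, 1.65% and 1.05% of all windows. No match says only that these letters are absent from this window.

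Whether a step was graded or on-off was read against 348 olfactory receptor genes, which T cells do not express. Their 95th percentile, taken on each array, ran from 4.69 to 5.24 and served as the limit. Probes differ in how strongly they bind, so a level above or under that limit is a description and not a measure of transcript number. The olfactory receptor genes themselves had steps between -0.67 and 0.34, with 0 of 348 reaching 1.

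By this limit PLEKHA1 and BEX1 were on-off: both arrays of number 3 lay above it and 0 of the other 6 did. For BEX1 the margin was narrow, since treated sample 1 measured 4.64 under a limit of 4.69. RNF130 and NETO2 were mixed. Both were above the limit in all 4 samples of numbers 1 and 2, under it in both samples of number 4, and highest at number 3. GFRA1 was graded, with all 8 arrays above the limit. The calls depend on where the limit is set. At the 99th percentile, 5.66 to 5.95, 4 genes were on-off and GFRA1 was mixed, with treated sample 4 alone among the other 6 above it. At the array median all 5 genes were on-off.

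Among all probe sets, 75 were higher at number 3 by at least 1 without overlap (0.35%) and 1 was lower (0.00466%). The rule chose the members on this contrast, so the share is background and nothing is read from it. RNF130, NETO2 and PLEKHA1 ranked 1, 2 and 3 among the 75, BEX1 ranked 6 and GFRA1 ranked 8. The count moves with the numbers it is set against, to 161 higher and 16 lower without number 1 and 226 higher and 15 lower without number 2. Without number 4, 82 were higher and 14 lower. By the same rule number 1 had 167 probe sets higher (0.779%) and 119 lower (0.555%), and number 2 had 561 higher (2.62%) and 158 lower (0.737%).

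Of the 75 probe sets, 62 had a mean outside number 3 under the median of all probe sets. By the limit used for the 5 genes, 21 were on-off. The 75 were picked for lying lower outside number 3, which favours such levels, so nothing is read from these counts.

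The 10 genes with the largest steps hold the 5 members and 5 others. NR4A1, an orphan nuclear receptor induced within minutes of T-cell receptor signalling, measured 10.30 and 10.17 in untreated and treated sample 3 and 6.53 to 8.26 elsewhere, a step of 2.74. EGR3, an early response transcription factor, measured 7.53 and 7.41 against 4.81 to 5.77, a step of 2.11. CD1E, a lipid-antigen protein of cortical thymocytes, measured 11.10 and 11.05 against 7.54 to 9.57, a step of 2.21. EFEMP1, an extracellular matrix protein, had a step of 2.34, and TMEFF1, a transmembrane protein with follistatin-like domains, one of 2.13. Signal of TMEFF1 and of its read-through transcript with MSANTD3 cannot be told apart here. ACKR3, a scavenging chemokine receptor, was the only gene lower by this rule, at 6.33 and 6.11 against 6.81 to 7.98, a step of -1.07.

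**Figure D2:**
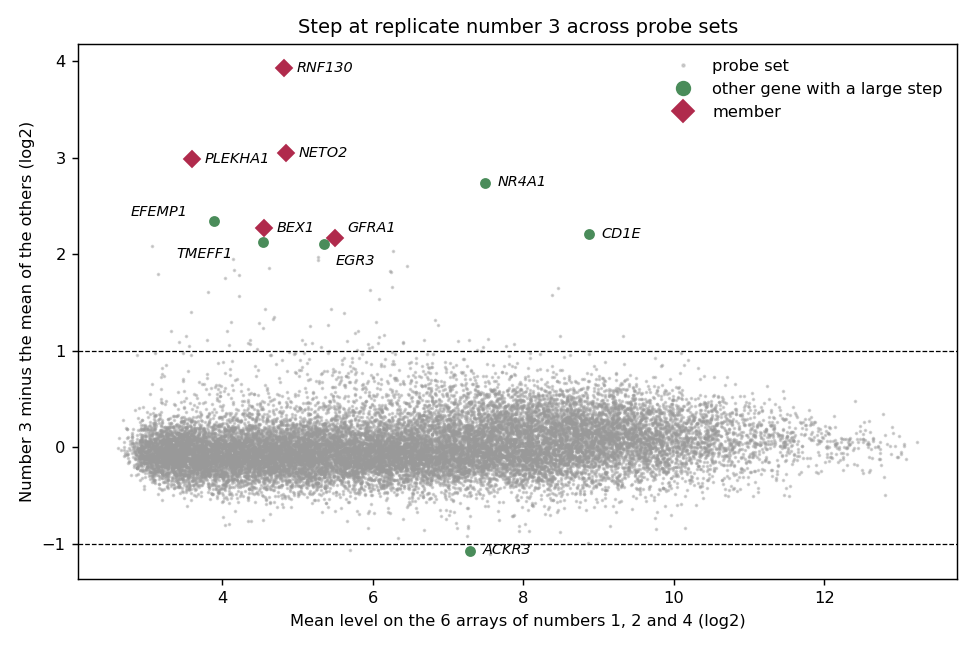
Step at number 3 (log2, vertical axis) against the mean level on the other 6 arrays (log2, horizontal axis), with a grey point for each probe set other than sex-linked check genes, green circles for other genes with the largest steps and red diamonds for the 5 members; dashed lines mark 1 and -1. RNF130 stands highest at 3.93, and among the labelled genes only ACKR3 lies below the lower line, at -1.07.

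The genes whose pattern over the 8 arrays was most like each member were listed by Pearson's r among 76 named probe sets with a step of at least 1 in size. These values describe 8 arrays that fall in 4 pairs, and the high number 3 pair sets most of each r. RNF130 was most like MYO7B, an unconventional myosin (r = 0.995), followed by NETO2 (0.991), SEPTIN11 (0.986), CD1A (0.975) and CD1B (0.972). NETO2 was most like SEPTIN11, a filament-forming septin (0.994), followed by CD1A (0.993), RNF130 (0.991), MYO1D (0.982) and MYO7B (0.978). Of these, MYO1D stayed under the silent limit on all 8 arrays, at 2.91 to 4.76. RNF130, NETO2 and these nearest genes share the lower level at number 4. CD1A, another cortical thymocyte protein, measured 8.19 and 8.41 at number 3 and 6.17 to 6.91 at numbers 1 and 2. At number 4 it measured 5.57 and 5.49. Both number 4 arrays were the lowest in 24.2% of all probe sets and in 42.7% of the 75 higher at number 3. That trait is therefore not particular to these genes.

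The remaining members had other nearest genes. PLEKHA1 was most like PMEPA1, a transmembrane protein that restrains TGF-beta signalling (r = 0.995), then SMC1B (0.987), PRXL2C (0.987), NPAS2 (0.979) and AMOTL1 (0.979). BEX1 was most like RNF212 (0.982), then PRAME, a cancer-testis antigen (0.973), PMEPA1 (0.973), PLEKHA1 (0.973) and GFRA1 (0.972). GFRA1 was most like GCSAM (0.984), then LAPTM4B (0.974), BEX1 (0.972), AMOTL1 (0.969) and PRAME (0.965). With Spearman's rho in place of r, between 0 and 2 of the 5 nearest genes of each member were kept.

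Steps were also taken in close relatives and partners of the 5 genes. Over the 5 family and pathway lists, 0 of 71 measured genes were higher or lower at number 3 by 1 without overlap. Of all probe sets 0.35% were higher and 0.00466% lower, so that count is near background and is no result about the families. The list medians lay between -0.07 and 0.03, where the median step of all probe sets was -0.01.

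Among 13 membrane E3 ligases related to RNF130, steps ran from -0.52 to 0.72 with a median of -0.03. RNF150, a close relative, had the largest, from 6.13 and 6.48 at number 3 against 4.54 to 6.30 elsewhere, so the arrays overlapped. Of the 7 kainate receptor genes and NETO partners, steps lay between -0.065 and 0.27. NETO1, the other NETO subunit, measured 5.82 and 6.08 at number 3 and 4.81 to 6.17 elsewhere. GRIK2, a kainate receptor subunit, stayed at or under the silent limit on all 8 arrays, at 3.85 to 5.10.

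The 21 measured genes that make, consume or bind the PLEKHA1 lipid had steps between -0.43 and 0.44, with a median of 0.01. PLEKHA2, the paralogue TAPP2, was present on all arrays at 8.66 to 9.70 and had a step of -0.32. INPP4A, a phosphatase that removes this lipid, had the largest step, 0.44, with 7.94 and 8.05 at number 3 and 6.78 to 8.11 elsewhere.

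The 14 genes of the BEX and TCEAL list, which includes the neurotrophin receptor NGFR, had steps between -0.27 and 0.49. BEX2, the close paralogue of BEX1, measured 5.15, 5.01, 5.80 and 5.91 in untreated samples 1 to 4 and 5.27, 4.81, 5.35 and 6.17 in the treated ones. It was highest at number 4, so the BEX1 step was not seen in the BEX2 probe set. Probe sequences were not used here, and how well the probes part these similar genes was not tested. TCEAL8 had the largest step of the list, 0.49, with 8.99 and 9.15 at number 3 and 8.17 to 8.87 elsewhere. Its arrays did not overlap, and it lies 3 genes from BEX1.

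Partners of GFRA1 had steps between -0.30 and 0.26. RET, the signalling receptor, measured 5.75 to 6.39 over the 8 arrays, above the silent limit on each, with a step of -0.0033. GFRA4 had the largest step in size of the 16 measured genes, -0.30. GDNF itself was not analysed here.

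**Figure D3:**
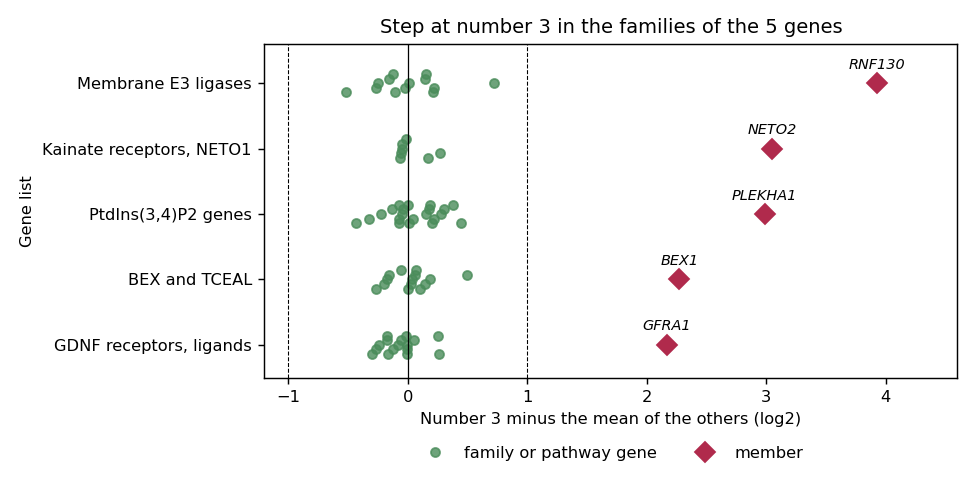
Step at number 3 (log2, horizontal axis) of each of the 5 members (red diamonds) and of the genes in its family or pathway list (green circles, 1 list per line on the vertical axis); dashed lines mark 1 and -1. The family genes lie between -0.52 and 0.72, while the members lie at 2.17 to 3.93.

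Markers of other kinds of cell were set beside the steps. Measured markers numbered 8 B-cell, 12 myeloid, 8 erythroid and megakaryocyte, 9 NK and cytotoxic, 11 fibroblast and epithelial and 17 neuronal. Of these, 0 were higher at number 3 by this rule, beside 0.35% of all probe sets, which is no result about them. List medians were between -0.115 and 0.05. The neuronal list, of interest because BEX1, NETO2 and GFRA1 are known from neurons, had a mean level of 5.13 and 5.14 at number 3 and 4.98 to 5.38 elsewhere. In 5 of those 17 genes all 8 arrays were at or under the silent limit. Its largest step was 0.36, in MAPT, which encodes tau.

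In the T-cell and T-ALL list 3 of 24 measured genes were higher at number 3 by this rule, beside 0.35% of all probe sets. They were CD1E, CD1A and CD1B, with steps of 2.21, 2.03 and 1.83. All belong to the CD1 family, so they are not separate results about T-cell markers. CD1C and CD1D, which were not on the list, had steps of 1.115 and 0.402. The mean level of the list was 8.67 and 8.79 at number 3 against 8.37 to 8.57 elsewhere, while its median step was 0.05 and 13 of its 24 genes had a step above 0. The part of these markers in the steps of the 5 genes was not tested.

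Steps of 1 without overlap were not seen in neighbouring genes. The 5 genes lie on chromosomes 5 (RNF130), 16 (NETO2), 10 (PLEKHA1 and GFRA1) and X (BEX1). Gene order was taken from RefSeq, with 10 measured genes on each side. For each member, 0 of 20 neighbours had a step of 1 without overlap, and neighbour medians lay between -0.02 and 0.12. The largest neighbour step was 0.76, in ATRNL1 beside GFRA1, where both number 3 arrays lay above the other 6 by at least 0.18. SHTN1, 9 genes from GFRA1 on the other side, followed the same pattern with a step of 0.60 and a gap of 0.17. These 2 neighbours would be called at the 1.5-fold limit, where 241 of all 21448 probe sets were higher. Of the 100 neighbours, 5 had both number 3 arrays above the other 6 by any amount, where 6.13% of all probe sets did. They were ATRNL1, SHTN1 and TRUB1 near GFRA1, TCEAL8 near BEX1 and MRNIP near RNF130. Of the 38 measured genes between GFRA1 and PLEKHA1 on chromosome 10, 0 were higher or lower by this rule. Their median step was 0.04. With 0.35% of all probe sets higher and 0.00466% lower, the counts of 0 in this paragraph are near background.

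**Figure D4:**
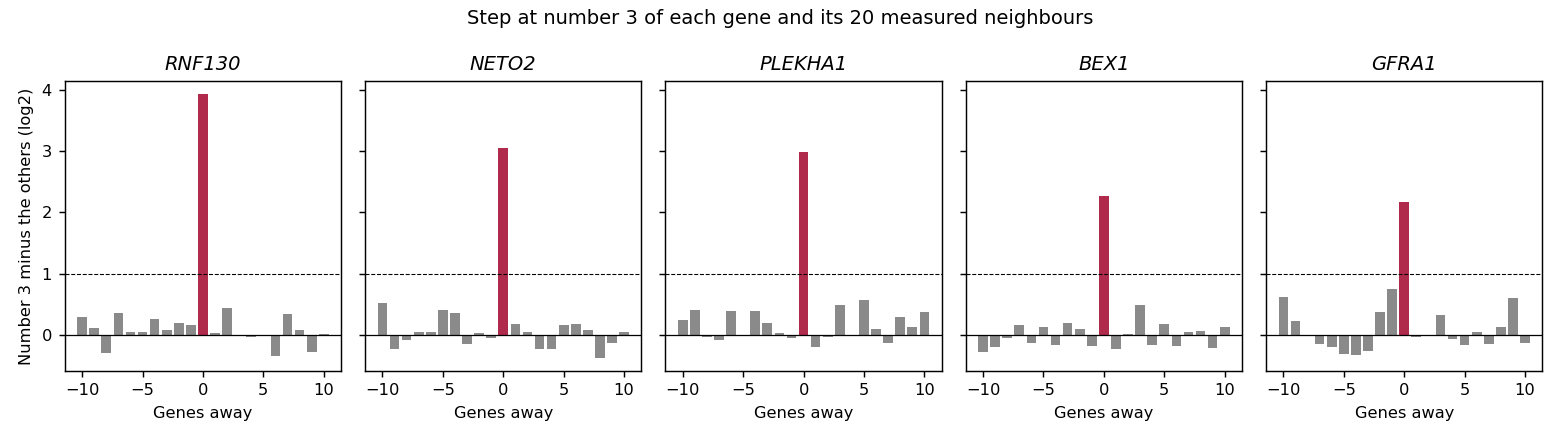
Step at number 3 (log2, vertical axis) of each member (red bar at 0) and of the 10 measured genes on each side in RefSeq order (grey bars, horizontal axis in genes away); the dashed line marks 1. The highest grey bar is that of ATRNL1 next to GFRA1, at 0.76.

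The step was also taken within each treatment group. The genes were chosen for this difference, and both number 3 arrays lay above all the others. A positive step in each group therefore follows from that choice, and only its size is described. Over untreated samples alone the step was 3.95 in RNF130, 2.89 in NETO2, 2.90 in PLEKHA1, 2.16 in BEX1 and 2.01 in GFRA1. Over treated samples alone the step was 3.91, 3.21, 3.07, 2.38 and 2.33 in the same order. The difference between these steps, treated minus untreated, ran from -0.04 in RNF130 to 0.33 in GFRA1. With 1 array per group at number 3, that difference has no test.

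OICR-9429 was compared with no treatment by limma over all probe sets, a contrast that did not choose the genes. At an adjusted p of 0.05 in limma, 0 of 21448 (0%) passed, the 5 genes included, and 105 had an unadjusted p under 0.05. With the replicate number as a block (the replicate block), which compares the same-numbered samples, 0 passed again (0%) and 1191 (5.55%) had an unadjusted p under 0.05. Without the block the SE carries the number 3 step. RNF130, at 5.78 ± 2.14 in untreated and 5.82 ± 2.19 in treated samples (SD, n = 4 each), had a 95% interval of -2.72 to 2.80 around a difference of 0.04. The intervals below are from the replicate block.

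BEX1 had the largest treatment difference of the 5 genes. Treated minus untreated was 0.08, 0.37, 0.42 and 0.16 for numbers 1 to 4, so the treated sample was higher in 4 of 4 pairs. Over all probe sets 5.94% were higher in all 4 pairs. The mean difference was 0.26 ± 0.10 (SE), with a 95% interval of 0.02 to 0.50 and, in limma with the block, an unadjusted p of 0.0390 and an adjusted p of 0.841. It did not pass the threshold. Without number 3 it was 0.20, with an interval of -0.11 to 0.51.

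GFRA1 pairs went both ways, at -0.14, -0.19, 0.38 and 0.49. The mean was 0.14 with an interval of -0.19 to 0.46, and 0.05 without number 3. NETO2 pairs stood at -0.15, 0.15, 0.34 and 0.06, with a mean of 0.10 and an interval of -0.16 to 0.36. The treated sample was higher in 3 of 4 pairs of NETO2, and its mean was 0.02 without number 3.

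PLEKHA1 pairs stood at 0.10, -0.41, 0.13 and 0.18, which gave a mean of 0 and an interval of -0.29 to 0.29. RNF130 pairs were 0.18, 0.14, 0.01 and -0.17, with a mean of 0.04 and an interval of -0.20 to 0.28. All adjusted p-values of these 4 genes were at least 0.893 in limma with the block. The upper bounds of the 5 intervals lie at or under 0.50, less than 2-fold, and a p over the threshold does not show that the levels were alike.

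**Figure D5:**
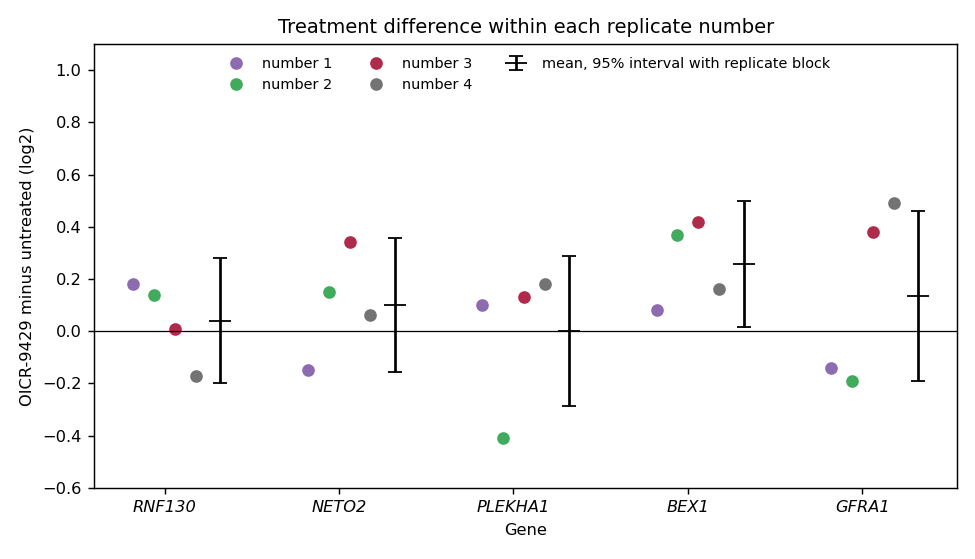
OICR-9429 minus untreated (log2, vertical axis) for each gene (horizontal axis), with a coloured point for each replicate number and a black bar for the mean with its 95% interval from the limma fit with replicate block. Points of BEX1 lie above 0 in 4 of 4 numbers, from 0.08 to 0.42, and the intervals of the other 4 genes include 0.

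The families were also compared between treatments. Of the 71 measured genes in the 5 lists, 0 passed in limma in either direction (0 had an unadjusted p under 0.05). With the replicate block 4 of 71 (5.63%) had one, beside 5.55% of all probe sets, which is no result about the families. List medians ran from -0.12 to 0.05, where that of all probe sets was 0.005. The 4 are named for their count alone. RNF150 stood at 0.44 and RNF215 at -0.37, both E3 ligases, and NCAM1, an alternative GDNF receptor, at -0.35. NRTN, a ligand of the GDNF family named after its values were seen, stood at -0.28. In the fit without the block, the smallest p of the other lists belonged to GRIK1, a kainate receptor subunit, at -0.22, INPP4B, a phosphatase that removes the PLEKHA1 lipid, at 0.16, and NGFR at -0.24. Each of the 7 had an adjusted p of 1 in limma without the block.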

How the data were processed

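The authors deposited log2 expression values, 1 per probe set and array. RMA produced them, per the submitters' processing notes (background correction, normalization between arrays, summary of probes) with Transcriptome Analysis Console. Software versions and genome build were not given in the sources used here. Scanner files were not used, so signal over background and scan batch were not examined, and the number of arrays limits the precision. The labelling kit was GeneChip WT PLUS, per the labels.

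Names come from the platform's annotation, with symbols updated by Entrez ID in a RefSeq table (GRCh38.p14), which served for names, gene order and, in its promoter table, the promoter windows. Of 21448 probe sets, 17709 had 1 symbol, 0 several and 3739 none. Where a gene had several probe sets the brightest was used. Treatment was tested with limma 3.58.1 (R 4.3.3, lmFit and eBayes, two-sided) on all 8 arrays with no covariate, Benjamini-Hochberg adjusted over all probe sets at 0.05. Both fits were tested on simulated data. Without the block, 0% of 1.5-fold, 5.95% of 2-fold and 87.6% of 4-fold changes were recovered. With it the shares were 9.65%, 89% and 100%, with 7.1 false calls on average at 2-fold. A count of 0 passing without the block therefore does not exclude 2-fold changes.

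Replicate numbers come from the titles. Across probe sets, same-numbered arrays deviated together from their group means, with r of 0.696, 0.748, 0.566 and 0.865, all over 0.1, so the numbers pair the samples and a fit with the replicate block is given. The members, gene lists, silent limit and rules were chosen with earlier results of these data known, and the promoter motifs after the values were seen. The named genes were the 5 members, the 5 most alike to each, the 10 largest steps each way, and in each family the largest step, the smallest treatment p and 6 fixed partners. Genes of chromosome Y and XIST entered the fits and counts but are not named.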

Additional observations from a re-analysis of the deposited data

Results flagged for a closer look

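In 102 groups of 4 arrays (51 named genes, untreated and treated), 10 held 1 array far from the other 3, where chance gives about 1 in 20 groups. Of these, 9 were arrays of number 3 and belong to genes that were chosen for that difference, so the tally is no separate evidence. Untreated sample 3 stood at 6.62 in BEX1 (the others 4.35 to 4.56), 7.48 in GFRA1 (5.43 to 5.52), 5.92 in PRXL2C (4.26 to 4.40), 6.14 in AMOTL1 (5.07 to 5.09) and 5.63 in RNF212 (3.52 to 3.69). Treated sample 3 stood at 6.65 in PLEKHA1 (3.37 to 3.84), 7.04 in BEX1 (4.62 to 4.72), 6.01 in PRAME (4.55 to 4.71) and 6.29 in LAPTM4B (4.05 to 4.27). The other was NETO1 in treated sample 4, at 4.81 (6.08 to 6.17). RNF130 and NETO2 held no such array.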

How the results depend on the processing

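The 5 member steps kept their sign, and moved by less than the SD of the other 6 arrays, under all 8 alternatives run for each. Both number 3 arrays lay above the other 6 in each gene, as the genes were chosen for this difference. Leaving out another number, taking the median of the others or using untreated or treated samples alone therefore could not turn the sign. The treatment comparison gave 0 probe sets in all 17 alternatives, the replicate block included, and the block changed no call. Leaving out 1 array at a time moved the treatment differences to between -0.94 and 1.03 in RNF130, -0.70 and 0.82 in NETO2, -0.77 and 0.73 in PLEKHA1, -0.34 and 0.80 in BEX1, and -0.45 and 0.64 in GFRA1. The lowest values came without treated sample 3 and the highest without untreated sample 3. These fits had no block, so leaving out 1 array of number 3 leaves the step in 1 group only. The sign turned in 12 of these fits, with 0 past the threshold. PLEKHA1, with a mean difference of 0, had no sign to turn. The count of probe sets higher at number 3 was 241 with a limit of 1.5-fold, 13 with 4-fold, 19 among probe sets at or above the median level, and 82 to 226 with 1 number left out. The count of lower ones was 60 with 1.5-fold, 0 with 4-fold, 2 with arrays centred on their median, 2 with quantile normalization, and 14 to 16 with 1 number left out. The cause of the shifts in these counts was not tested. The treatment fits without number 4 were chosen after seeing the data. Members called on-off numbered 4 with the 99th percentile and 5 with the array median, against 2. Signal over background is not known, which limits any reading of the dim levels.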

Other observations

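Probe sets higher at number 3 lay on most chromosomes. Chromosome 2 held 11 of its 1336 probe sets and chromosome 1 held 10 of 2144, while chromosome 19, with 1458 probe sets, held 0. The 10 of chromosome 1 include CD1A, CD1B and CD1E, which belong to 1 gene family and are not unrelated cases. Chromosome 10 held 4 of 798, PLEKHA1 and GFRA1 among them, which were chosen for the step. Of all probe sets 0.35% were higher at number 3. The counts by chromosome carry no test, and nothing is read from them.

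Outside number 3 the 5 genes did not all follow 1 pattern. Across the 6 arrays of numbers 1, 2 and 4, Pearson's r was 0.962 for RNF130 with NETO2 and 0.83 for PLEKHA1 with each of them. BEX1 and GFRA1 had r between -0.742 and 0.198 with every other member. These values describe 6 arrays in 3 pairs and carry no test.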
